A study of Mus musculus with 4 samples.

Results

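Notch signalling in the embryonic mouse cortex was followed through 10 genes, Notch1, Notch2, Notch3, Dll1, Dll3, Jag1, Mfng, Hes1, Hes5 and Hey1, chosen by name, out of 36528 gene rows in each count table. All 10 were found, as 1 row each, in all 4 tables. The data were single-cell RNA counts from cortical cells of 2 COP1 KO and 2 HET mice on a C57BL/6 background at E16.5. Each had 1 droplet library (10x Chromium 3′ kit, which reads the 3′ ends of transcripts). The labels call the mutant COP1 KO in the samples' names and give no allele, no driver of a deletion and no meaning for HET. Whether the gene was altered in all cells or in some is not stated. Cop1, listed in the tables under its older symbol Rfwd2, encodes an E3 ubiquitin ligase that marks transcription factors of the ETS and AP-1 families, among other proteins, for degradation.

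Notch receptors sit on the cell surface and are switched on by Delta and Jagged ligands on a neighbouring cell, after which the cleaved receptor enters the nucleus and, with Rbpj, turns on transcriptional repressors of the Hes and Hey families. In the embryonic cortex, Hes1 and Hes5 hold down proneural genes and keep radial glia, the stem cells of the cortex, dividing, while neighbouring cells that express proneural factors and Delta ligands move on towards intermediate progenitors and neurons. Dll3 is a divergent Delta ligand that is known mainly for acting inside the cell, and Mfng (manic fringe) is a glycosyltransferase that adds sugars to Notch receptors and changes which ligands they respond to.

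The 4 libraries held 28049007 and 28988265 counts in COP1 KO and 28327090 and 28071382 counts in HET. After filters 5191 and 4728 COP1 KO cells and 4546 and 4315 HET cells were kept, with median counts per cell of 4431 and 5049 in COP1 KO against 5090 and 5390 in HET. Cells were clustered without any of 53 listed Notch genes and named from marker lists, which gave 1339 radial glia-like, 1384 intermediate progenitor-like, 738 ganglionic eminence progenitor-like (ventral progenitors), 327 oligodendrocyte precursor-like and 4908 excitatory neuron-like cells, other neuron and non-neural classes, and 6311 cells left unnamed. The radial glia-like class held 399 and 346 COP1 KO cells against 287 and 307 HET cells. All 15 of its markers were detected in every library, and their summed level was 24873 and 23755 CPM (counts of the class scaled to the same total in every library) in COP1 KO against 24518 and 25189 CPM in HET. The targeted gene was not at 0 in the COP1 KO libraries: Rfwd2 stood at 20.1 and 23.2 CPM in COP1 KO radial glia-like cells against 23.0 and 34.6 CPM in HET (log2 change -0.38, edgeR adjusted p = 0.515). It stood at 20.3 and 20.9 CPM in COP1 KO ganglionic eminence progenitor-like cells against 42.7 and 39.6 CPM in HET (log2 change -0.94, edgeR adjusted p = 0.350). A 3′ count outside a deleted exon does not check a deletion, so these values neither bear out nor go against the labels. Haemoglobin and other red blood cell markers summed to 2346 and 183 CPM in COP1 KO radial glia-like cells against 184 and 156 CPM in HET. This sets COP1 KO replicate 1 apart in this class. In the 4 libraries, 178 barcode sequences were seen in more than 1 library.

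The RefSeq promoter windows show which members carry the letters of a known Notch response element. GTGGGAA, a form of the Rbpj binding word, occurred in the windows of 6.38% of 32851 RefSeq start sites (300 bases each, both strands searched). CAGCTG, an E-box that basic helix-loop-helix factors can bind, occurred in 16.3%. Windows were matched by symbol for 7 of the 10 members, all but Hes1, Hey1 and Mfng. Hes5 alone among those 7 held GTGGGAA, at 2 places, and CAGCTG occurred in Dll3, Jag1 and 1 of the 2 start sites of Dll1. The 250 bases upstream of the start are shown for the effector with GTGGGAA and the Delta ligands with CAGCTG, 5′ to 3′ on the gene's strand in GRCm38.p6. Capitals mark GTGGGAA in Hes5, where the first copy reads TTCCCAC because it lies on the other strand, and CAGCTG in Dll3 and Dll1.
Hes5, chr4:154960673-154960922, plus strand: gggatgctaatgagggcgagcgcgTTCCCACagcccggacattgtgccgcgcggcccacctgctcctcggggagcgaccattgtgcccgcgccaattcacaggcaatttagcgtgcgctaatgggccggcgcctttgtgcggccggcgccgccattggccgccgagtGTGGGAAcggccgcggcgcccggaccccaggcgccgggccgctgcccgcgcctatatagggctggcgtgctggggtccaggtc
Dll3, chr7:28301786-28302035, minus strand: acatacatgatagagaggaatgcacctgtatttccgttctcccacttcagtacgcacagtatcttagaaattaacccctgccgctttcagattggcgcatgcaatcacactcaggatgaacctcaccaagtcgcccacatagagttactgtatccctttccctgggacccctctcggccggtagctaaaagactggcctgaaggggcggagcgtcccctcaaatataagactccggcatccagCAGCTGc
Dll1, chr17:15376933-15377182, minus strand: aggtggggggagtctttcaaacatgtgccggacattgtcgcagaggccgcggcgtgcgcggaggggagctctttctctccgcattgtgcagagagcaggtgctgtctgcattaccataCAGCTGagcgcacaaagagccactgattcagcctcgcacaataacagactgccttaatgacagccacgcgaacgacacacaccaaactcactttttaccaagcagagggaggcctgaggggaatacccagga
In Hes5 the words began at positions -226 and -83 relative to the start site, in Dll3 at -7 and in Dll1 at -132. A match describes the letters only, and no binding was measured in these cells.

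Across cell classes, each gene's level was taken as CPM of all counts of a class in a library, and levels were compared within a gene, not between genes. Notch1, the main receptor of cortical progenitors (chr2:26457902-26503822), averaged 172 ± 11.7 CPM in radial glia-like cells (SD, n = 4 libraries), below the 208 ± 33.7 CPM of endothelial-like cells, with overlapping ranges. It stood at 93.4 CPM in ganglionic eminence progenitor-like cells, 61.0 CPM in intermediate progenitor-like cells and 2.82 CPM in excitatory neuron-like cells. The order therefore ran from stem cell to committed progenitor to neuron, and the ranges of the radial glia-like, intermediate progenitor-like and excitatory neuron-like classes did not overlap. Notch2 (chr3:98013538-98150367) had its highest mean in radial glia-like cells, at 226 ± 57.0 CPM, and fibroblast-like cells followed at 147 CPM with an overlapping range. It averaged 128 CPM in oligodendrocyte precursor-like and 64.5 CPM in microglia-like cells, while intermediate progenitor-like cells held 17.5 CPM. The oligodendrocyte precursor-like value rests on HET replicate 1 and on 1 cell in it: the mean was 54.9 CPM without that library, below that of microglia-like cells. Notch3 (chr17:32120820-32166896), a receptor known from vascular mural cells, had its highest mean in mural-like cells, at 223 ± 122 CPM. Endothelial-like cells followed at 89.5 CPM, with an overlapping range, against 20.6 CPM in radial glia-like cells. Mural markers gave the endothelial-like cluster its second highest marker score (1.663, against 4.772 for endothelial markers). Annotated genes on other rows overlap Notch1, Notch2, Notch3 and Hey1, and whether the authors' counting used strand is not given in the sources used here, so parts of these counts are uncertain.

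The Delta ligands and the fringe gene had their highest means in other classes than the receptors did. Below the highest mean, classes were shared, as with Mfng and Notch1 in endothelial-like cells. Dll1 (chr17:15367354-15376932) averaged 92.0 ± 19 CPM in ganglionic eminence progenitor-like cells, 69.0 CPM in intermediate progenitor-like cells, and 41.6 and 41.5 CPM in oligodendrocyte precursor-like and radial glia-like cells (n = 4 libraries each). Neighbouring classes in this order overlapped down to radial glia-like cells, which lay above the 16.4 CPM of excitatory neuron-like cells. Dll3 (chr7:28293555-28301785) averaged 119 ± 14.9 CPM in ganglionic eminence progenitor-like, 70.9 CPM in oligodendrocyte precursor-like and 66.7 CPM in intermediate progenitor-like cells. It averaged 47.2 CPM in Cajal-Retzius-like and 14.2 CPM in radial glia-like cells. Mfng (chr15:78755882-78773516) averaged 283 ± 28.7 CPM in intermediate progenitor-like cells, 228 CPM in endothelial-like cells and 170 CPM in ganglionic eminence progenitor-like cells, and 38.6 CPM in radial glia-like cells. Dll1, Dll3 and Mfng thus shared a higher level in the committed progenitor classes than in radial glia-like cells. Jag1 (chr2:137081451-137116520), a Jagged ligand used in blood vessels, differed from them. It averaged 122 ± 46.9 CPM in endothelial-like, 82.4 CPM in fibroblast-like and 72.5 CPM in mural-like cells, against 29.9 CPM in radial glia-like and 7.23 CPM in intermediate progenitor-like cells. Without HET replicate 1 the mural-like mean was 46.2 CPM. The endothelial-like, mural-like, fibroblast-like and microglia-like classes held 63, 42, 92 and 86 cells in all, which limits the precision of their levels.

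The effectors had their highest means in radial glia-like cells, and for Hes1 and Hey1 the ranges overlapped those of other classes. In COP1 KO replicate 2 Hes1 stood at 730 CPM in fibroblast-like cells (89 of 199 counts in 1 cell) against 726 CPM in radial glia-like cells. In HET replicate 2 Hey1 stood at 153 CPM in endothelial-like cells against 120 CPM in radial glia-like cells. Hes1 (chr16:30065357-30067796) averaged 1003 ± 244 CPM in radial glia-like cells (SD, n = 4 libraries, both genotypes). It averaged 667, 644 and 583 CPM in fibroblast-like, endothelial-like and mural-like cells, and 525 CPM in oligodendrocyte precursor-like cells, and, with no overlap with those classes, 57.5 CPM in ganglionic eminence progenitor-like and 45.1 CPM in intermediate progenitor-like cells. Hes5 (chr4:154960626-154962372) averaged 1275 ± 136 CPM in radial glia-like cells, above every other class without overlap, and kept 696 CPM in oligodendrocyte precursor-like, 555 CPM in ganglionic eminence progenitor-like and 340 CPM in intermediate progenitor-like cells. Hes1 and Hes5 therefore parted in the committed progenitors, where Hes5 stood nearer to its radial glia-like level than Hes1 did, and in the vascular and fibroblast classes, where Hes5 averaged at most 19.4 CPM. Hey1 (chr3:8663359-8667038) averaged 141 ± 25.7 CPM in radial glia-like cells, 108 CPM in endothelial-like, 84.8 CPM in oligodendrocyte precursor-like and 45.8 CPM in intermediate progenitor-like cells, and still 13 CPM in excitatory neuron-like cells.

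**Figure D1:**
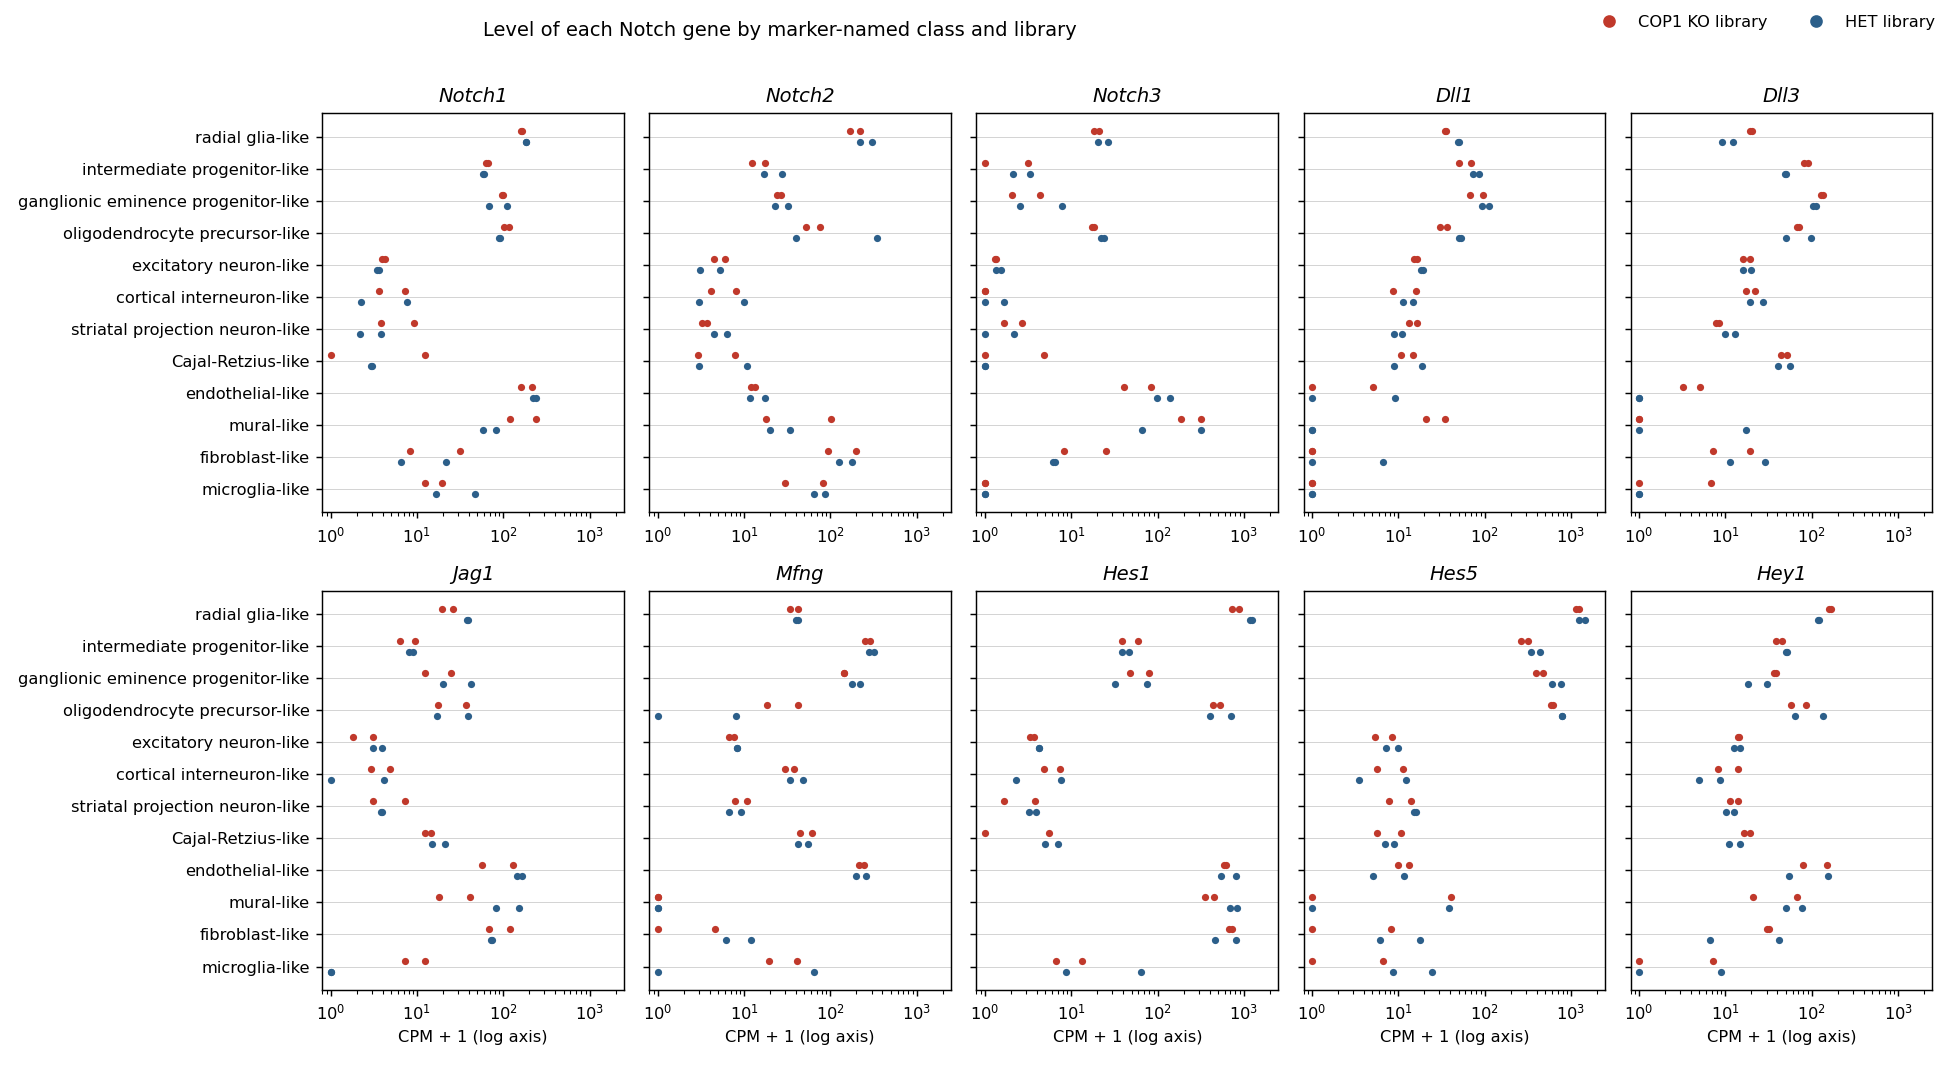
Level of each of the 10 genes (horizontal log axis, CPM + 1) in each cell class (rows), 1 point per library, with COP1 KO drawn above HET in each row. By the mean over libraries, Hes1, Hes5, Notch2 and Hey1 are highest in radial glia-like cells, Mfng in intermediate progenitor-like cells, and Dll1 and Dll3 in ganglionic eminence progenitor-like cells. Of these genes, only Hes5 and Dll3 show no overlap in range with the next class.

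Counting where a gene's transcripts were found gives a second view, which depends on class size. Radial glia-like cells made up 6.31% to 7.69% of the cells of a library and held on average 71.3% of its Hes1 counts, 67.5% of Notch2, 64.2% of Hes5, 49.4% of Notch1, 40.3% of Notch3 and 39.1% of Hey1 counts. The same cells held 27.5% of Jag1, 14.5% of Dll1, 7.58% of Mfng and 4.44% of Dll3 counts. Intermediate progenitor-like cells, 6.64% to 7.81% of cells, held 40.3% of Mfng counts. Endothelial-like cells, at most 0.48% of cells in a library, held 23.8% of Notch3 and 15.4% of Jag1 counts. Their median depth was 3.5 times that of their library, which raises their share of counts against their share of cells. Whether these barcodes held more than 1 cell was not tested. Excitatory neuron-like cells, 25.3% to 27.1% of cells, held 22.8% of Dll1 and 21.0% of Dll3 counts at a low level per cell. The unnamed cells, 32.3% to 35.1% of cells, held 29.5% of Dll3 counts, more than any named class, and 22.1% of Dll1, 18.5% of Mfng and 17.9% of Hey1 counts, but 1.0% of Hes1 and 1.89% of Hes5 counts.

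**Figure D2:**
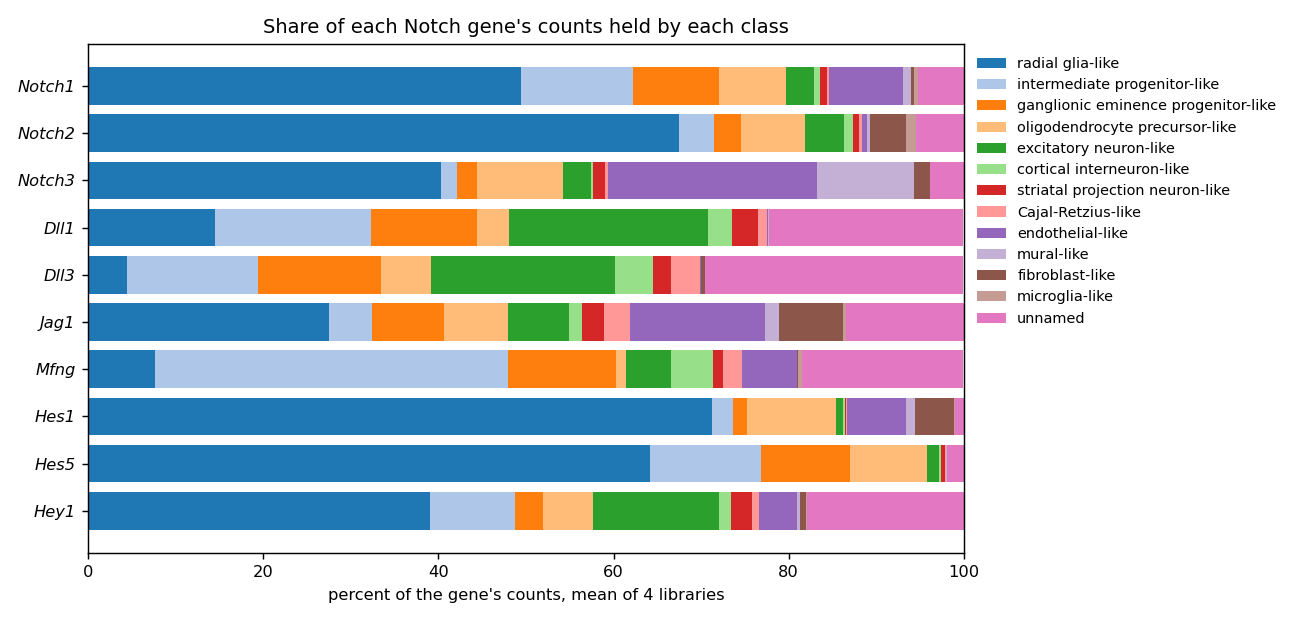
Percent of each gene's counts found in each cell class (stacked bars, horizontal axis in percent, mean over 4 libraries). Radial glia-like cells hold 71.3% of Hes1 counts and 4.44% of Dll3 counts.

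The genes with the most similar pattern were taken over 48 points (12 classes in 4 libraries, which share libraries and depth) among 11585 genes, by Pearson's r of log2(CPM + 1), as a description. Hes1 lay closest to Yap1 and Wwtr1 (r = 0.942 each), the paired co-activators of the Hippo pathway, and to the intermediate filament gene Vim (0.930). Hey1 lay closest to Tspan12 (0.834), to Nrarp (0.831), a known Notch target, and to Tspan15 (0.824). Hes5 lay closest to Gm19554 (0.901), Pipox (0.887) and Smarca5 (0.878). The receptors had other neighbours: Ctnna1 (0.893), Myo10 (0.891) and Cdk1 (0.889) for Notch1, Eef1d (0.873), Trip6 (0.841) and Pbxip1 (0.836) for Notch2, and Plce1 (0.930), Fermt2 (0.926) and Cdc42ep1 (0.917) for Notch3. Dll1 lay closest to Srsf10 (0.873), Cbx5 (0.868) and Skiv2l2 (0.861), and Dll3 to Spsb4 (0.861), Rbx1 (0.844) and Dcakd (0.826). Jag1 lay closest to Tjp1 (0.862), Serpinh1 (0.853) and Timm17a (0.844), and Mfng, with the lowest values, to Lrp8 (0.776), Tnk2 (0.691) and Igdcc3 (0.690). Among the members themselves, Hes1 followed Notch3 (0.813) and Notch1 (0.804) most closely, and Dll3 ran weakly against Notch3 (-0.382).

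The radial glia-like class is a pair of clusters with different Notch profiles. The first, 63.0% to 66.7% of the class in COP1 KO and 57.5% to 57.7% in HET, was led by Aldoc, Hes5, Mt3 and Fabp7. The second was led by genes of dividing cells such as Prc1, Ccnb1 and Cdc20. Over the 4 libraries, Hes5 averaged 1790 CPM in the Aldoc-led cluster and 752 CPM in the dividing cluster, Dll1 58.9 and 24.8 CPM, and Mfng 53.1 and 24.5 CPM in the same order. Hes1 ran the other way, at 908 CPM in the Aldoc-led and 1103 CPM in the dividing cluster, with overlapping ranges. Hey1 averaged 136 and 145 CPM in the same order, with overlapping ranges.

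COP1 KO was compared with HET first in radial glia-like cells, on the summed counts of the class per library, with edgeR's quasi-likelihood test over all genes. Hes1 fell and Hey1 rose, 1 member in each direction and 2 of 10 in all, where 2.86% of the 11492 genes tested passed an adjusted p of 0.05 (0.792% lower, 2.07% higher). Of the 10 members 6 had an unadjusted p under 0.05, as did 1677 of the 11492 genes tested. Of the members 8 had a negative and 2 a positive log2 change, and the median log2 change was -0.19, against -0.00 over all genes. All 10 passed the filter on low counts in this class. All genotype p-values rest on 2 libraries against 2, and an exact permutation test of a single value could not go below 0.333 at that size.

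Hes1 stood at 870 and 726 CPM in COP1 KO radial glia-like cells and at 1234 and 1181 CPM in HET. Both COP1 KO libraries lay below both HET libraries, with means of 798 ± 102 and 1207 ± 37.6 CPM (SD, n = 2 each). The log2 change was -0.55 ± 0.10 (SE, edgeR adjusted p = 0.0262), and DESeq2 gave the same change with an adjusted p of 0.00302. The edgeR call was lost without HET replicate 1 (adjusted p = 0.0952) and without HET replicate 2 (adjusted p = 0.0601), with log2 changes of -0.51 and -0.58. Without COP1 KO replicate 1, which had the highest sum of red blood cell markers in this class, the change was -0.71.

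Hey1, a repressor of the related Hey family, moved the opposite way in the same cells, at 167 and 159 CPM in COP1 KO against 117 and 120 CPM in HET. The groups did not overlap, and their means were 163 ± 5.75 and 119 ± 2.04 CPM. The log2 change was 0.50 ± 0.09 (SE, edgeR adjusted p = 0.0245). This call was less steady than that of Hes1: DESeq2 gave an adjusted p of 0.202, and edgeR gave adjusted p from 0.0517 to 0.134 when any 1 of the 4 libraries was left out. The third effector, Hes5, stood at 1249 and 1137 CPM in COP1 KO against 1251 and 1463 CPM in HET, a log2 change of -0.14 ± 0.10 (edgeR adjusted p = 0.579). COP1 KO replicate 1 and HET replicate 1 had nearly the same Hes5 level.

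Markers of other cell types were counted in the same radial glia-like sums. The summed ganglionic eminence progenitor markers stood at 1103 and 1126 CPM in COP1 KO, with 11 of 11 markers detected in each library, against 1547 and 1510 CPM in HET, with 10 of 11 in each. The 8 intermediate progenitor markers, all detected in every library, summed to 1200 and 1018 CPM in COP1 KO against 1284 and 1415 CPM in HET. Striatal projection neuron markers summed to 761 and 650 CPM in COP1 KO (12 of 14 detected in each) against 792 and 792 CPM in HET (10 and 13). These lists were lower in both COP1 KO libraries, as Hes1 was. The intermediate progenitor list holds Neurog1 and Neurog2, and the ganglionic eminence list the dividing-cell genes Mki67, Top2a and Hmgb2. The dividing cluster was a smaller share of the class in COP1 KO, so the sums do not measure other cells alone. The sums of the excitatory neuron, cortical interneuron, Cajal-Retzius and choroid plexus lists overlapped between the genotypes. Some lists of further cell types were higher in both COP1 KO libraries. Oligodendrocyte precursor markers summed to 93.8 and 152 CPM in COP1 KO against 58.3 and 33.3 CPM in HET. Of these, 6 and 7 of 8 were detected against 5 and 5, with Neu4 at 0 in all 4. Endothelial markers summed to 49.7 and 49.7 CPM in COP1 KO against 36.3 and 38.4 CPM in HET. Mural markers summed to 41.5 and 62.1 CPM in COP1 KO against 25.6 and 35.9 CPM in HET. Fibroblast markers summed to 35.8 and 56.3 CPM in COP1 KO against 27.1 and 29.9 CPM in HET. Microglia markers, at a low level, summed to 7.42 and 7.04 CPM in COP1 KO against 5.63 and 6.84 CPM in HET (6 and 8 of 10 detected in each genotype). Endothelial markers were detected as 9 and 6 of 9 in COP1 KO against 5 and 6 in HET, with Cdh5 at 0 in COP1 KO replicate 2 and both HET libraries, mural markers as 8 and 6 of 8 in COP1 KO against 7 and 8 in HET, and fibroblast markers as 4 and 6 of 6 in COP1 KO against 6 and 6 in HET. The part of these lists in the changes of Hes1 and Hey1 was not tested.

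**Figure D3:**
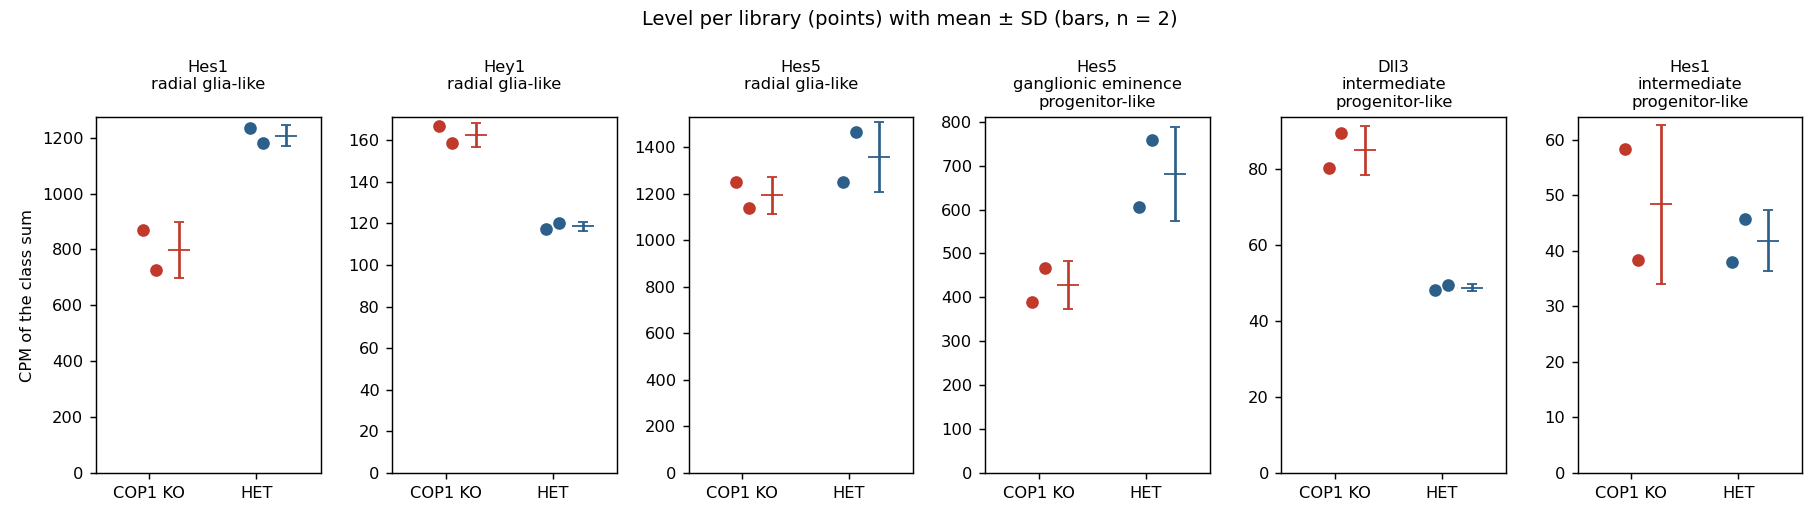
CPM per library (points) with the mean and SD of each genotype (n = 2), COP1 KO left of HET, for Hes1, Hey1 and Hes5 in radial glia-like cells, Hes5 in ganglionic eminence progenitor-like cells, and Dll3 and Hes1 in intermediate progenitor-like cells. Hes1 in radial glia-like cells stands at 870 and 726 CPM in COP1 KO against 1234 and 1181 CPM in HET.

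None of the receptors passed the test in radial glia-like cells. Notch1 stood at 159 and 165 CPM in COP1 KO against 183 and 180 CPM in HET (log2 change -0.12 ± 0.08, edgeR adjusted p = 0.566). Notch2 stood at 166 and 217 CPM in COP1 KO against 303 and 218 CPM in HET (-0.40 ± 0.16, adjusted p = 0.292 by edgeR). In Notch2, COP1 KO replicate 2 and HET replicate 2 were close and HET replicate 1 stood above the rest. Notch3 stood at 17.5 and 19.9 CPM in COP1 KO against 19.4 and 25.6 CPM in HET (-0.24, adjusted p = 0.705 by edgeR), with overlapping groups. Among the ligands, Dll1 stood at 34.5 and 33.9 CPM in COP1 KO against 49.1 and 48.3 CPM in HET (-0.46 ± 0.15, edgeR adjusted p = 0.190). Jag1 stood at 18.8 and 25.3 CPM in COP1 KO against 38.4 and 37.2 CPM in HET (-0.73 ± 0.19, edgeR adjusted p = 0.102). Dll3 was the ligand with a positive change, at 19.2 and 18.2 CPM in COP1 KO against 11.3 and 8.12 CPM in HET (1.01 ± 0.27, edgeR adjusted p = 0.111). Mfng stood at 41.0 and 33.1 CPM in COP1 KO against 41.4 and 38.9 CPM in HET (-0.07, edgeR adjusted p = 0.915). For Dll1, Jag1 and Dll3 both COP1 KO libraries were on the same side of both HET libraries, and the changes did not pass the adjusted threshold. The same held for Notch1 and, by a narrow gap, for Notch2 and Hes5. Such a separation of 2 libraries from 2 has an exact permutation p of 0.333, and its share over all genes was not counted.

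**Figure D4:**
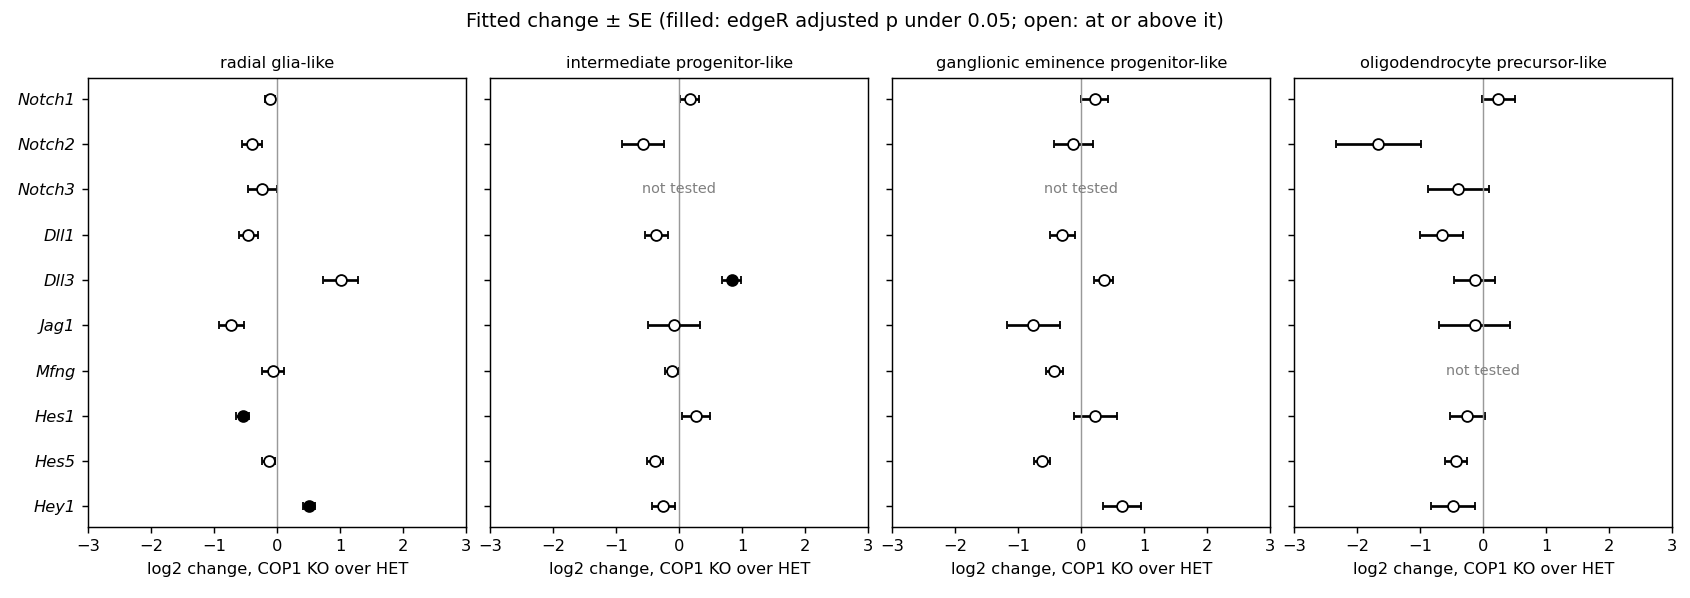
Log2 change of COP1 KO over HET with its SE (horizontal axis, edgeR) for each of the 10 genes (rows) in radial glia-like, intermediate progenitor-like, ganglionic eminence progenitor-like and oligodendrocyte precursor-like cells. Filled points passed an adjusted p of 0.05: Hes1 at -0.55 and Hey1 at 0.50 in radial glia-like cells, and Dll3 at 0.83 in intermediate progenitor-like cells. Genes under the filter in a class are marked as not tested.

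The proneural genes, which Hes factors repress and which in turn raise Delta ligands, and the rest of the pathway were read beside the members. Neurog2, the leading proneural gene of the dorsal cortex, fell to 252 and 226 CPM in COP1 KO radial glia-like cells, against 393 and 402 CPM in HET (log2 change -0.69 ± 0.09, edgeR adjusted p = 0.00533). Hes1 and Neurog2 thus both fell in the class sums. Neurog1, its close relative, stood at 3.05 and 0.828 CPM in COP1 KO against 7.67 and 6.84 CPM in HET (-1.84, edgeR adjusted p = 0.144). Of 43 further listed Notch pathway genes (fringe and cleavage enzymes, nuclear partners, inhibitors and other Hes and Hey genes), 35 passed the filter and 0 passed edgeR's test in radial glia-like cells. Of these 35 genes, 5 were at an unadjusted p under 0.05, as were 1677 of the 11492 genes tested. By DESeq2 0 of them passed, and their median log2 change was -0.02. The nearest were Hes6, a Hes relative that counters Hes1 in mouse neurogenesis, at 250 and 289 CPM in COP1 KO against 201 and 223 CPM in HET (0.39, edgeR adjusted p = 0.0620), and Nrarp, a feedback inhibitor induced by Notch. Nrarp stood at 163 and 152 CPM in COP1 KO against 200 and 241 CPM in HET (-0.44, edgeR adjusted p = 0.0798).

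Hes1 fell within each of the 2 radial glia-like clusters, whose shares of the class differed between the genotypes. In the Aldoc-led cluster Hes1 fell to 794 and 629 CPM in COP1 KO, against 1207 and 1004 CPM in HET (log2 change -0.59 ± 0.12, edgeR adjusted p = 0.00811), where 2.63% of 10264 genes were called. In the dividing cluster Hes1 fell to 975 and 829 CPM in COP1 KO, against 1255 and 1354 CPM in HET (-0.49 ± 0.11, edgeR adjusted p = 0.0321), where 2.15% of 9822 genes were called. Hey1 rose in the dividing cluster, to 169 and 177 CPM in COP1 KO against 120 and 116 CPM in HET (0.60 ± 0.12, edgeR adjusted p = 0.0207). It stood at 165 and 141 CPM in COP1 KO against 114 and 125 CPM in HET in the Aldoc-led cluster (0.41, edgeR adjusted p = 0.186). Neurog2 passed in the Aldoc-led cluster (-0.92) and did not in the dividing cluster (edgeR adjusted p = 0.302). Nrarp passed in the Aldoc-led cluster (-0.67, edgeR adjusted p = 0.0122). The difference between the clusters was not tested. Hes5 stood at 1678 and 1495 CPM in COP1 KO against 1948 and 2038 CPM in HET in the Aldoc-led cluster (-0.28, edgeR adjusted p = 0.111). These splits by cluster were chosen after the data were seen.

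The lower Hes1 level was also seen as fewer cells with a Hes1 count. After each cell was thinned to 2000 counts, Hes1 was found in 64.4% (255 of 396 cells, exact 95% interval 59.5% to 69.1%) and 57.2% (198 of 346 cells, 51.8% to 62.5%) of COP1 KO radial glia-like cells. In HET it was found in 78.0% (224 of 287 cells, 72.8% to 82.7%) and 71.7% (220 of 307 cells, 66.3% to 76.6%). Both COP1 KO shares were below both HET shares, with group means of 60.8% and 74.9% (unthinned 79.2% in COP1 KO and 88.8% in HET), and the intervals of COP1 KO replicate 1 and HET replicate 2 overlapped. The background, taken as the share of excitatory neuron-like cells with a Hes1 count, was 0.350% in COP1 KO and 0.646% in HET. Median depth was 5178 and 5766 counts in COP1 KO radial glia-like cells against 5701 and 6626 in HET. Excitatory neuron-like cells were deeper, at 6010 and 7019 counts in COP1 KO against 7069 and 7508 in HET. Intervals cover counting error only. Hey1 was found in 25.8% and 27.2% of thinned COP1 KO cells against 20.9% and 23.8% of HET cells, with a background of 2.82% in COP1 KO and 2.35% in HET.

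In intermediate progenitor-like cells Dll3 was the member that passed the test, and it rose. Of the 10 members 9 passed the filter there, and 1 of these was called, against 0.584% of 10446 genes (0.460% higher). At an unadjusted p under 0.05 there were 2 of these members and 1148 of the 10446 genes. Dll3 stood at 80.2 and 89.4 CPM in COP1 KO against 48.1 and 49.3 CPM in HET, so that the groups did not overlap (log2 change 0.83 ± 0.15, edgeR adjusted p = 0.0367). The call was lost without HET replicate 1 (adjusted p = 0.30) and without HET replicate 2 (adjusted p = 0.159). It was also lost at other cluster settings, with edgeR adjusted p of 0.0634 to 0.166, and DESeq2 called 0 members in this class and gave no adjusted p for Dll3. In the Eomes-led and the dividing cluster of the class alone, edgeR called 0 members (0.658% of 9579 and 0.375% of 7465 genes), with Dll3 at an adjusted p of 0.112 and 0.208. At an unadjusted p under 0.05 there were 3 and 2 members in these clusters, and 1011 and 749 of all genes tested. DESeq2 was not run on either cluster. Dll3 was found in 13.7% of thinned COP1 KO cells and 10.2% of HET cells, against a background of 3.30% in COP1 KO and 2.66% in HET excitatory neuron-like cells.

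The other members in intermediate progenitor-like cells did not pass. Mfng, with its highest mean level in this class, stood at 286 and 250 CPM in COP1 KO against 277 and 320 CPM in HET (log2 change -0.11, edgeR adjusted p = 0.756). Hes5 stood at 316 and 266 CPM in COP1 KO against 347 and 432 CPM in HET (-0.38, edgeR adjusted p = 0.285). Dll1 stood at 68.7 and 49.7 CPM in COP1 KO against 72.5 and 85.1 CPM in HET (-0.36, edgeR adjusted p = 0.504). Hes1 stood at 58.5 and 38.3 CPM in COP1 KO against 38.0 and 45.8 CPM in HET (0.26, edgeR adjusted p = 0.721), and the sign of this value turned under other cluster settings. Of the 43 further pathway genes 28 passed the filter and 1 was called. Nrarp fell to 66.9 and 72.3 CPM in COP1 KO, against 114 and 113 CPM in HET (-0.68 ± 0.13, edgeR adjusted p = 0.0440). DESeq2 did not make this call (adjusted p = 0.292), and edgeR lost it without HET replicate 1 (0.329) or HET replicate 2 (0.218). Neurog2, which is among the markers that named this class, differed by -0.04 in it (edgeR adjusted p = 0.918). Red blood cell markers summed to 1961 and 200 CPM in COP1 KO intermediate progenitor-like cells against 194 and 147 CPM in HET. Radial glia markers summed to 3716 and 3328 CPM in COP1 KO against 2879 and 2817 CPM in HET. The part of either list in these values was not tested.

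In ganglionic eminence progenitor-like cells 0 of the 9 members that passed the filter were called by edgeR, where 0.204% of 8813 genes were called. At an unadjusted p under 0.05 there were 3 members and 638 of the 8813 genes, and DESeq2 called 0 members. Hes5 came nearest, at 390 and 468 CPM in COP1 KO against 606 and 758 CPM in HET (log2 change -0.63 ± 0.13, edgeR adjusted p = 0.0899). Both COP1 KO libraries were below both HET libraries, and the call was made when libraries were scaled by their totals alone (adjusted p = 0.0476) or without COP1 KO replicate 2 (adjusted p = 0.00760). Mfng stood at 144 and 142 CPM in COP1 KO against 175 and 219 CPM in HET (-0.43, edgeR adjusted p = 0.438). Dll3 stood at 128 and 134 CPM in COP1 KO against 111 and 102 CPM in HET (0.36, edgeR adjusted p = 0.633), and Dll1 at 66.4 and 96.1 CPM in COP1 KO against 93.3 and 112 CPM in HET (-0.30, edgeR adjusted p = 0.786). Red blood cell markers summed to 4662 and 3394 CPM in the COP1 KO cells of this class against 207 and 143 CPM in HET. Radial glia markers summed to 5021 and 3980 CPM in COP1 KO against 3269 and 3203 CPM in HET. The part of either list in the Hes5 value was not tested.

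In oligodendrocyte precursor-like cells, which numbered 115 and 140 in COP1 KO against 35 and 37 in HET, 0 of the 9 members that passed the filter were called by edgeR (0.259% of 8104 genes were called). At an unadjusted p under 0.05 there were 2 members and 818 of the 8104 genes, and DESeq2 called 0 members. Hes5 stood at 618 and 583 CPM in COP1 KO against 789 and 795 CPM in HET (log2 change -0.44, edgeR adjusted p = 0.450). Hes1 stood at 534 and 443 CPM in COP1 KO against 715 and 407 CPM in HET (-0.25, edgeR adjusted p = 0.813). Notch2 showed the widest gap, 50.9 and 74.7 CPM in COP1 KO against 347 and 39.1 CPM in HET, and 1 cell decided it. That cell held 75 of the 99 Notch2 counts of HET replicate 1, which stood at 105 CPM without it. Markers of other cell types set the libraries of this class apart. The choroid plexus list, which gave this cluster its second highest marker score (2.588, against 3.252 for oligodendrocyte precursor markers), summed to 17.8 and 10816 CPM in COP1 KO (1 and 5 of 5 markers detected) against 63872 and 13 CPM in HET (5 and 2 of 5 detected). Red blood cell markers summed to 4949 and 4592 CPM in COP1 KO (7 and 6 of 8 detected, Slc4a1 at 0) against 231 and 212 CPM in HET (4 and 3 of 8 detected, Slc4a1 at 0). The part of these lists in the levels and changes of this class was not tested. Among neurons, edgeR called 0 of 9 members in excitatory neuron-like cells (0% of 13069 genes), 0 of 6 in cortical interneuron-like cells (0.0099% of 10101 genes), 0 of 5 in striatal projection neuron-like cells (0.00988% of 10119 genes) and 0 of 2 in Cajal-Retzius-like cells (0.0135% of 7384 genes). Each of these classes had 0 members at an unadjusted p under 0.05, against 1138, 670, 642 and 467 of all genes tested in the same order. DESeq2 called 0 members in each. Over the sum of all cells of a library 0 of 10 members were called by edgeR (0.0061% of 16381 genes) and 0 by DESeq2. At an unadjusted p under 0.05 there were 3 members and 1704 of the 16381 genes. Hes1 stood at 116 and 100 CPM in COP1 KO against 114 and 137 CPM in HET (-0.18, edgeR adjusted p = 0.601), with overlapping groups.

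Whether a genotype change differed between classes was tested directly, with the libraries as a block. For Hes1, the change in radial glia-like cells minus that in intermediate progenitor-like cells was -0.81 ± 0.18 (log2, edgeR adjusted p = 0.0255), 1 of 10 members called where 0.679% of 11627 genes were. That call was lost without HET replicate 1 (adjusted p = 0.177) and without COP1 KO replicate 1 (adjusted p = 0.568). The difference turned to 0.07 (adjusted p = 0.979) when Notch genes were kept in the clustering (28 clusters, with 13 Notch genes among the clustering genes). Against ganglionic eminence progenitor-like cells, Hes5 was called. Its change in radial glia-like cells was higher by 0.49 ± 0.10 (edgeR adjusted p = 0.00216), 1 of 10 members where 0.553% of 11040 genes were called. This call was lost without HET replicate 2 (adjusted p = 0.0832) and without COP1 KO replicate 1 (adjusted p = 0.613). Against oligodendrocyte precursor-like cells 0 of 10 members were called by edgeR (0.156% of 11552 genes), with 3 members and 1080 genes at an unadjusted p under 0.05. Against excitatory neuron-like cells 0 of 10 were called (2.05% of 13751 genes), with 3 members and 1469 genes at an unadjusted p under 0.05. DESeq2 was not run on these differences.

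Last, cells of 1 class were split by whether they held a Dll1 count, as a description of which members go together in single cells. Of the radial glia-like cells 210 held a Dll1 count and 1129 did not. Mfng averaged 131 CPM in cells with Dll1 and 19.4 CPM in cells without it over the 4 libraries, a mean log2 ratio of 2.71 (2.34 to 2.93 over the libraries). Dll3 averaged 44.4 and 7.93 CPM in the same order (2.31, range 1.80 to 3.13). The Delta ligands and the fringe gene thus went together in every library. Hey1 and Notch2 went the other way, at 76.5 CPM with Dll1 and 154 CPM without for Hey1 (-1.02, range -1.31 to -0.77). The level was 125 CPM with Dll1 and 248 CPM without for Notch2 (-1.02, range -1.51 to -0.55). Hes1 was lower in cells with Dll1 as well, at 767 and 1050 CPM (-0.53, range -0.87 to -0.17). Hes5 and Notch1 did not follow Hes1: Hes5 averaged 1558 CPM with Dll1 and 1210 CPM without (0.32, range -0.06 to 0.74), and Notch1 184 and 169 CPM.

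The same split gave mean log2 ratios of the same sign for Hey1, Hes1 and Mfng in both radial glia-like clusters. They were -1.22, -0.57 and 2.68 in the Aldoc-led cluster and -0.97, -0.46 and 2.66 in the dividing cluster. Over the libraries, the Hes1 ratio in the dividing cluster ran from -1.22 to 0.05. Dll3 ran less evenly than these genes. Its ratio was 2.57 (range 1.58 to 3.93) in the Aldoc-led cluster and 0.86 (range -2.52 to 2.41) in the dividing cluster, where HET replicate 2 had 0 Dll3 counts in its 13 cells with Dll1. After thinning, Dll3 stood at 0 CPM in the 12 dividing cells with Dll1. The thinned ratios of the dividing cluster ran from -0.77 to 0.25 for Hes1 over the libraries. They ran from -7.66 to -0.32 for Hey1 and from -4.37 to 4.79 for Mfng. By library, Hes1 in radial glia-like cells with Dll1 stood at 509 and 468 CPM in COP1 KO against 1016 and 1074 CPM in HET. In cells without Dll1 it stood at 931 and 782 CPM in COP1 KO against 1283 and 1205 CPM in HET. Both COP1 KO libraries were below both HET libraries on either side of the split. Depth differed little, with medians of 5243 and 5905 counts with Dll1 against 5134 and 5760 without it in COP1 KO, and of 5464 and 6767 with Dll1 against 5902 and 6580 without it in HET. Detecting a Dll1 count depends on depth and chance, so cells without a count can still express the gene.

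In intermediate progenitor-like cells Hes5 averaged 535 CPM in the 297 cells with Dll1 and 267 CPM in the 1087 cells without it (log2 ratio 0.97, range 0.73 to 1.31). In ganglionic eminence progenitor-like cells it averaged 872 CPM in the 204 cells with Dll1 and 406 CPM in the 534 cells without it (1.11, range 1.04 to 1.17). In both committed progenitor classes, therefore, the Hes5 level was higher in the cells with a Dll1 count, in each library, although these were the fewer cells. Within the intermediate progenitor-like class this came from the cluster led by Eomes and Neurog2, at 533 CPM with Dll1 and 164 CPM without (1.69), while the dividing cluster gave 554 and 527 CPM (0.02). Mfng, high throughout the class, differed little there between cells with and without Dll1, with mean log2 ratios of 0.18 in the Eomes-led and 0.46 in the dividing cluster.

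**Figure D5:**
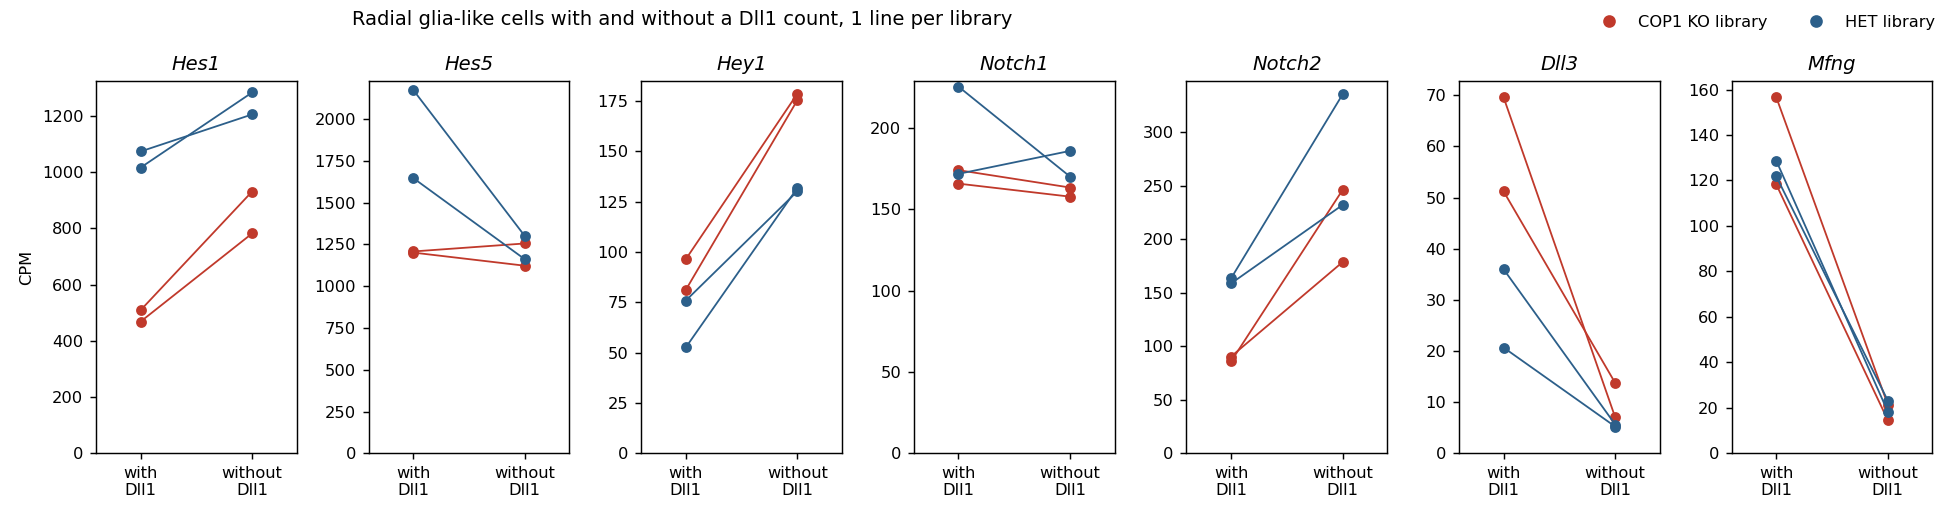
Mean CPM of 7 genes in radial glia-like cells with and without a Dll1 count (horizontal axis; linear vertical axis in CPM, from 0), 1 line per library, COP1 KO and HET in separate colours. Mfng and Dll3 are higher and Hey1, Notch2 and Hes1 lower in cells with a Dll1 count, with mean log2 ratios of 2.71, 2.31, -1.02, -1.02 and -0.53.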

How the data were processed

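Cortical cells of 4 mice at E16.5 were measured with 10x Chromium 3′ libraries. The authors deposited raw counts per gene and barcode, 1 table per mouse, not normalized. Reads were aligned with GSNAP to GRCm38 (mm10), per the submitters' processing notes; how reads were counted, with which annotation, how molecular identifiers were treated and how cells were called is not stated there or in the labels. The tables held 19237 barcodes and 36528 rows, of which 3065 had a number for a name (1.687% of counts) and stayed out, as did 34 copies among 27 groups of identical rows (1.335% of counts). Cells with under 500 genes (222) or over 10% mitochondrial counts (1) were removed. The automatic Scrublet threshold marked 12 barcodes (0.06311%), which is too few for a working caller, so a doublet score of 0.25, set after seeing the data, removed 234 cells (1.231%). That left 18780 cells.

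Cells were scaled to 10000 counts and clustered with scanpy 1.11.5 and leidenalg 0.10.2 in Python 3.11.15 (2000 variable genes, 30 components, 15 neighbours, resolution 1, no Notch genes), giving 27 clusters. A cluster was named "X-like" from marker lists where its score was at least 0.5 with a margin of 0.3 and at least 3 markers were each found in 10% of cells. Clusters led by markers of another class stayed unnamed, among them 3 that scored as a neuronal class (7.91% to 9.70%, 5.69% to 6.93% and 4.31% to 4.84% of a library's cells).

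Counts were summed per class and library, which is the replicate (2 COP1 KO, 2 HET), for classes with at least 20 cells in every library. They were tested with edgeR 4.0.16 (R 4.3.3) over all genes after its filter on low counts, with TMM scaling, the quasi-likelihood test and Benjamini-Hochberg adjustment at 0.05; DESeq2 1.42.0 was an alternative. Differences between classes were an interaction of class and genotype, with libraries blocked. The scripts were tested on simulated counts. The labels give separate mice, so p-values measure the spread between these 4 mice. Replicate libraries differed by more than sampling noise (chi-square per degree of freedom 19.1 for the COP1 KO pair and 11.5 for the HET pair). Against HET replicate 1 and HET replicate 2, the same value was 24.5 and 23.7 for COP1 KO replicate 1. It was 13.2 and 11.0 for COP1 KO replicate 2, the last below both pairs within a genotype. Exact 95% binomial intervals cover counting error only. The members, gene lists and marker lists were chosen with earlier results of these data known. Named were all 10 members, listed pathway genes past the threshold in a class sum, the proneural genes Neurog1 and Neurog2, the targeted gene, and for each member the 3 genes most alike over class and library sums (at least 20 CPM in their highest class); Hes6, and Nrarp in radial glia-like cells, were named after their values were seen. One gene that this rule named is not reported here. Promoter windows and coordinates are from RefSeq, GRCm38.p6, matched by symbol.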

Additional observations from a re-analysis of the deposited data

Results flagged for a closer look

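By the class-by-genotype term of edgeR, the genotype change passed the test of a difference between cell classes for 2 members, Hes1 and Hes5, and for Hes6 and Neurog2. The change in radial glia-like cells minus the change in intermediate progenitor-like cells was -0.81 for Hes1 (edgeR adjusted p = 0.0255) and -0.65 for Neurog2 (edgeR adjusted p = 0.00023). Neurog2 stood at 252 and 226 CPM in COP1 KO radial glia-like cells against 393 and 402 CPM in HET. It was among the markers that named the intermediate progenitor-like class and was not left out of the clustering. The Neurog2 difference is therefore not independent of how that class was drawn. The Hes1 difference was lost without HET replicate 1 (0.177), without COP1 KO replicate 1 (0.568), with doublets kept (0.901), at resolution 0.5 (0.0703) and at resolution 2.0 (-0.028, adjusted p = 0.993), and turned to 0.069 with Notch genes kept. The change in radial glia-like cells minus the change in ganglionic eminence progenitor-like cells was 0.49 for Hes5 (adjusted p = 0.00216) and 0.58 for Hes6 (adjusted p = 0.00284). The Hes5 difference was lost without HET replicate 2 (0.0832), without COP1 KO replicate 1 (0.613), with doublets kept (0.252), at resolution 0.5 (0.104) and with Notch genes kept (0.0566). The change in radial glia-like cells minus the change in excitatory neuron-like cells was 0.47 for Hes6 (adjusted p = 0.00814) and -0.70 for Neurog2 (adjusted p = 0.00316). Red blood cell markers were higher in the COP1 KO cells of the ganglionic eminence progenitor-like class, at 4662 and 3394 CPM against 207 and 143 CPM in HET, and their part in the differences for Hes5 and Hes6 was not tested.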

How the results depend on the processing

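The fall of Hes1 in radial glia-like cells held its direction under every alternative run, and lost the call when either HET library was left out; the cause was not tested. Members called by edgeR in radial glia-like cells numbered 2, against 5 with no filter on low counts, 1 with DESeq2, 1 in the Aldoc-led cluster alone, and 0 to 1 with a library left out. In intermediate progenitor-like cells 1 member was called, against 2 with no filter, 0 with DESeq2, 0 with doublets kept, 0 at clustering resolutions 0.5 and 2.0, 0 with Notch genes kept in the clustering, 0 in either of its clusters alone, and 0 to 2 with a library left out. In ganglionic eminence progenitor-like cells 0 were called, against 1 with library totals alone, with no filter and at resolution 2.0, and 0 to 1 with a library left out. In oligodendrocyte precursor-like cells 0 were called, against 2 with no filter and 0 to 2 with a library left out. For the difference between classes, 1 member was called against intermediate progenitor-like cells (2 with no filter, 0 with doublets kept, 0 at resolution 0.5, 0 to 1 with a library left out) and 1 against ganglionic eminence progenitor-like cells (0 with Notch genes kept, 0 to 1 with a library left out). None was called against oligodendrocyte precursor-like cells (2 with no filter) or excitatory neuron-like cells (1 with no filter, 1 with Notch genes kept). A count of members does not name them, so an unchanged count need not be the same member. The Hes1 difference against intermediate progenitor-like cells was also lost at resolution 2.0 and with Notch genes kept. The Hes5 difference against ganglionic eminence progenitor-like cells was also lost with doublets kept and at resolution 0.5.

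The sign of Hes1 in intermediate progenitor-like cells (0.26) ranged from -0.11 without COP1 KO replicate 1 to 0.54 without COP1 KO replicate 2 and turned to -0.32 with doublets kept, -0.52 at resolution 2.0 and -0.60 with Notch genes kept, and its class difference of -0.81 turned to 0.069 with Notch genes kept. Mfng in radial glia-like cells (-0.07) ranged from -0.25 without COP1 KO replicate 1 to 0.11 without COP1 KO replicate 2 and stood at 0.32 in the dividing cluster alone, and its level of 38.6 CPM moved to 30.6 CPM at resolution 0.5 and 30.4 CPM with Notch genes kept. Between cells with and without Dll1 in the intermediate progenitor-like class, the log2 ratio of Hes1 (0.86) turned to -0.37 after thinning, and that of Hey1 (-0.00) ranged from -0.32 to 0.24 with a library left out. The cause of these turns was not tested.

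The number of all genes called in radial glia-like cells was 329, from 194 with DESeq2 to 845 with no filter and from 188 to 271 with a library left out. In intermediate progenitor-like cells it was 61, from 8 with doublets kept to 332 with no filter and from 2 to 544 with a library left out. In ganglionic eminence progenitor-like cells it was 18 (10 to 118, and 6 to 151 with a library left out), in oligodendrocyte precursor-like cells 21 (11 to 342, and 7 to 437), in whole libraries 1 (1 to 164, and 0 to 1221), in excitatory neuron-like cells 0 (0 to 248, and 0 to 1074), in cortical interneuron-like cells 1 (1 to 172, and 0 to 356), in striatal projection neuron-like cells 1 (1 to 155, and 0 to 396) and in Cajal-Retzius-like cells 1 (0 to 31, and 10 to 133). For the class differences it was 79 against intermediate progenitor-like cells (77 to 130, and 29 to 94), 61 against ganglionic eminence progenitor-like cells (60 to 87, and 36 to 62), 18 against oligodendrocyte precursor-like cells (6 to 267, and 0 to 68) and 282 against excitatory neuron-like cells (287 to 379, and 87 to 283). With 1 library left out, the lone library of a genotype is assumed to vary like the others. Oligodendrocyte precursor-like cells had no value with doublets kept. No paired analysis was possible because the labels carry no replicate numbers; the numbers used here follow the order of the records and only name the libraries. The splits by cluster, without the largest cell and, for levels, without a library were chosen after seeing the data. The number of libraries, 2 a genotype, and the 42 to 92 cells of the small classes limit the precision for low genes such as Notch3 and Jag1.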

Other observations

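Members were also found in clusters that kept no class name. A cluster led by Htr3a and Dlx genes held Mfng at 117 and 135 CPM in COP1 KO against 133 and 132 CPM in HET, and Dll3 at 43.3 and 35.2 CPM in COP1 KO against 27.5 and 47.4 CPM in HET. These levels lay between those of the ganglionic eminence progenitor-like and the cortical interneuron-like cells for both genes.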
